A study of Mus musculus with 6 samples.

Results

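The myogenic regulatory and MEF2 factors examined here were 9 transcription factor genes taken by name from the array table, Myod1, Myog, Myf5, Myf6, Pax7, Mef2a, Mef2c, Mef2d and Six4. Each was measured by 1 probe set of 21212 on the array (18782 with a unique gene name), and none was left out. RNA came from gastrocnemius and plantaris muscles of 2 groups of male CDF1 mice, 8 weeks old at purchase. The C26 group was 4 mice that had received C26 adenocarcinoma cells in PBS and matrigel under the skin of both flanks, and the control group was 3 mice that had received PBS and matrigel alone. Muscles were taken 25 days after inoculation, and RNA of 2 to 3 muscles of a group was combined into 3 C26 pools (replicates 1, 3 and 4) and 3 control pools (replicates 1, 2 and 3), with 1 Affymetrix array (Mouse Gene 1.0 ST) for each pool. No source used here states which muscles entered which pool, so pools of a group may share a mouse, and p-values measure only the spread between pools. The model is 1 transplanted tumor line in 1 sex and strain, and the control mice had no tumor of any kind. Whole muscle RNA holds fibers, satellite cells, vessels, connective tissue and blood cells together, so that fewer cells of a type and less RNA per cell cannot be told apart.

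MyoD, myogenin, Myf5 and MRF4 (the products of Myod1, Myog, Myf5 and Myf6) are basic helix-loop-helix factors that pair with E proteins on E-boxes and turn cells into muscle. MEF2 factors bind A/T-rich sites, have little myogenic activity on their own and work together with the myogenic bHLH factors, and in fibers they are held in check by class IIa histone deacetylases. Pax7 marks satellite cells, the stem cells of adult muscle, and Six4 is a homeobox factor that binds the MEF3 site of muscle promoters. In adult fibers MRF4 is the main bHLH factor, whereas myogenin is low and is known to return after denervation, when it switches on acetylcholine receptor genes and the atrophy ligase genes Trim63 and Fbxo32.

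Values are RMA values on the log2 scale, and differences are C26 minus control. Here rose and fell are used of a gene only where limma gave a Benjamini-Hochberg adjusted p of at most 0.05 over all 21212 probe sets and the change was at least 1.5-fold. Of the 9 factors 1 rose (Myog), 2 fell (Myod1 and Mef2c) and 6 did not pass both thresholds. Over the whole array 10.9% of probe sets passed, 5.94% as rises (1261) and 4.95% as falls (1049). With the arrays centred on their medians these were 1534 rises and 839 falls. Without the 1.5-fold minimum 4 of the 9 factors were higher (Myog, Myf6, Mef2a and Mef2d) and 2 were lower, against 30.1% of all probe sets in either direction. C26 and control pools did not overlap for 8 of the 9 factors, and Myf5 was the exception. Over all probe sets the share without overlap was 43.9%. The 9 genes were listed with earlier results of these arrays known, so these shares describe the list and do not test it. All 9 lay above the background of 3.82 (log2, the 95th percentile of 1248 olfactory and vomeronasal receptor probe sets) in both groups. Array medians lay between 4.93 and 5.02. Arrays of a group correlated at 0.994 to 0.996, and arrays of different groups at 0.976 to 0.981. Correlations of levels are thus high even between groups, so they do not show whether an array stood apart. Actin and creatine kinase of muscle fibers were bright on every array, as the tissue label says, with Acta1 at 12.99 to 13.02 in C26 pools and 13.02 to 13.07 in control pools. Of 6 epithelial markers of colon tumors (Epcam, Krt8, Krt18, Krt20, Cdx2 and Vil1) none passed, and their summed level was 6.70 to 6.73 in C26 pools and 6.75 to 6.96 in control pools. Only 3 of the 6 (Krt8, Krt18 and Cdx2) lay above the background in a group. Their level in C26 cells was not measured.

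**Figure D1:**
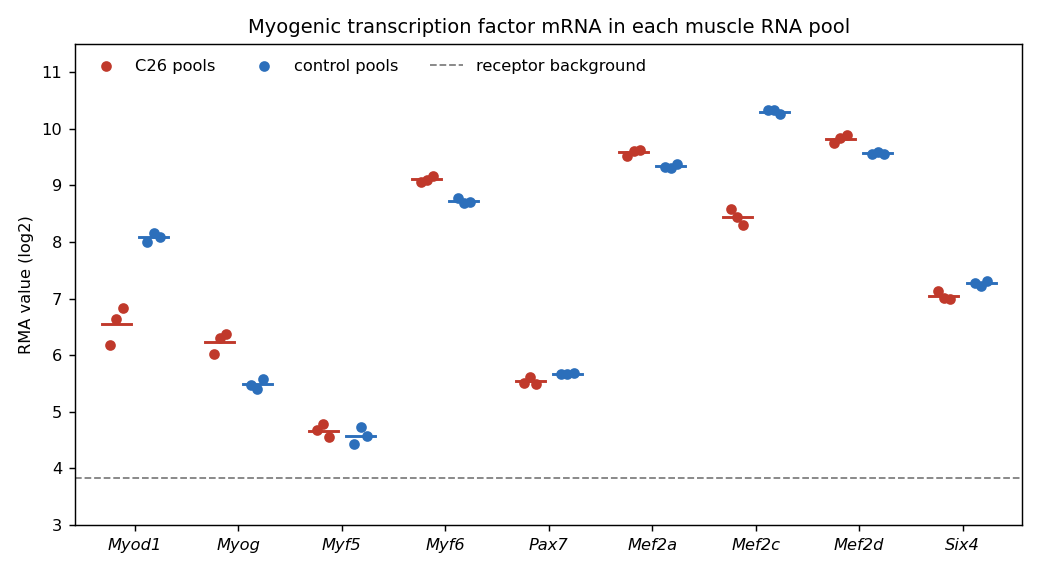
RMA values (log2, vertical axis) of the 9 myogenic factors (horizontal axis) in 3 C26 pools (red) and 3 control pools (blue), with group means as lines and the receptor background as a dashed line. Mef2c and Myod1 lie well below control in every C26 pool, Myog, Myf6, Mef2a and Mef2d lie above it, and Myf5 overlaps.

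Mef2c had the largest change of the 9 factors. Mef2c (Entrez Gene 17260) encodes the MEF2 isoform that is needed for sarcomere assembly and fiber type in mouse muscle. Its value was 8.58, 8.45 and 8.31 in C26 replicates 1, 3 and 4, against 10.33, 10.33 and 10.26 in control replicates 1, 2 and 3. Every C26 pool was thus lower than every control pool by more than the spread within either group. Means were 8.45 ± 0.14 in C26 muscle and 10.31 ± 0.04 in control muscle (SD, 3 pools each). The difference was −1.86 (SE 0.09, 95% confidence interval −2.06 to −1.66, adjusted p = 4.32e-06 from limma), or 3.63-fold lower. Leaving out each array in turn gave −1.93 to −1.79. The probe set covers Mef2c as a whole, so transcripts from its 3 annotated start sites were not told apart.

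Mef2a and Mef2d did not fall. Mef2a (17258) and Mef2d (17261) encode the other MEF2 factors abundant in fibers, and both were slightly higher in C26 muscle. Mef2a was at 9.53, 9.61 and 9.62 in the C26 pools, against 9.33, 9.31 and 9.38 in the control pools. Mef2d was at 9.75, 9.83 and 9.89 in the C26 pools, against 9.56, 9.59 and 9.55 in the control pools. The groups did not overlap for either gene, and the steps were small. The differences were 0.25 for Mef2a (SE 0.07, interval 0.08 to 0.41, adjusted p = 0.0306 from limma) and 0.26 for Mef2d (SE 0.07, interval 0.09 to 0.43, adjusted p = 0.0281), and both intervals end below the 1.5-fold minimum. With 1 array left out, the adjusted p from limma was 0.0324 to 0.0967 for Mef2a and 0.0268 to 0.0843 for Mef2d. It was under 0.05 only without C26 replicate 1, for both genes. Quantile normalization gave 0.0734 and 0.0504, and a block for the replicate number 0.276 and 0.234. Mef2b, the fourth MEF2 gene and no member of the list, differed by −0.22 (SE 0.10, adjusted p = 0.123).

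Of the myogenic bHLH factors, MyoD and myogenin moved in opposite directions. Myod1 (17927), which in adult muscle is expressed in activated satellite cells and in fast fibers, was at 6.18, 6.63 and 6.83 in C26 replicates 1, 3 and 4, against 8.00, 8.15 and 8.09 in control replicates 1, 2 and 3. C26 pools were all lower and were more spread out than control pools, with replicate 1 the lowest. Means were 6.55 ± 0.33 in C26 muscle and 8.08 ± 0.08 in control muscle (SD, 3 pools each). Myod1 fell by 1.53 on the log2 scale (SE 0.15, interval −1.88 to −1.19, adjusted p = 0.000136 from limma), or 2.89-fold. In the test with unequal variances its adjusted p was 0.0708, and by the methods' t-test, run here with equal variances, it was 0.0145. Neither of these tests borrows strength from other genes.

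Myog (17928), the myogenin gene of terminal differentiation, was at 6.02, 6.31 and 6.38 in the C26 pools, against 5.48, 5.40 and 5.58 in the control pools. Replicate 1 had the smallest step above the control mean, 0.53, against 0.82 and 0.89 in replicates 3 and 4. Myog rose by 0.75 (SE 0.11, interval 0.50 to 1.00, adjusted p = 0.00109 from limma), or 1.68-fold. The interval reaches below the 1.5-fold minimum, and with unequal variances the adjusted p was 0.0653. The pool with the lowest Myod1 was also the pool with the lowest Myog among the C26 pools.

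**Figure D2:**
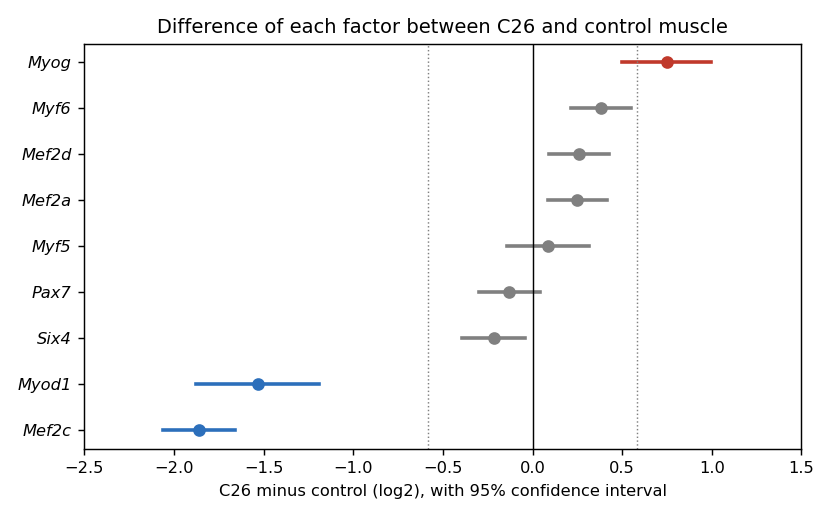
Difference between C26 and control muscle (log2, horizontal axis) for each of the 9 factors, with its 95% confidence interval from limma, not adjusted for the number of genes. Dotted lines mark a 1.5-fold change, red and blue mark the genes that rose or fell. Myog rose by 0.75, Mef2c and Myod1 differed by −1.86 and −1.53, and the 6 grey genes lie between −0.22 and 0.38.

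Myf6 (17878), the MRF4 gene, was at 9.06, 9.09 and 9.16 in the C26 pools, against 8.79, 8.69 and 8.70 in the control pools. All C26 pools were above all control pools. The difference was 0.38 (SE 0.07, interval 0.21 to 0.55, adjusted p = 0.00481 from limma), or 1.30-fold, under the fold minimum, and the adjusted p was at most 0.0219 when each array was left out. With a block for the replicate number the adjusted p from limma was 0.107. Myf5 (17877), which marks satellite cells and their descendants, was at 4.67, 4.78 and 4.55 in the C26 pools, against 4.44, 4.72 and 4.58 in the control pools. These values overlapped, with a difference of 0.09 (SE 0.10, interval −0.14 to 0.31, adjusted p = 0.572).

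Pax7 (18509) was at 5.51, 5.62 and 5.49 in the C26 pools, against 5.67, 5.66 and 5.68 in the control pools. The C26 pools were all slightly lower, but the difference of −0.13 (SE 0.07, interval −0.30 to 0.04) had an adjusted p of 0.233 from limma. Six4 (20474) was at 7.14, 7.01 and 6.99 in the C26 pools, against 7.27, 7.22 and 7.32 in the control pools. Its pools did not overlap between the groups, and its difference was −0.22 (SE 0.08, interval −0.39 to −0.04, adjusted p = 0.0669 from limma). This adjusted p was under 0.05 in some alternatives, such as quantile normalization (0.0404), an intensity trend (0.0391) and without C26 replicate 1 (0.0432). With median centring it was 0.194, and with a block for the replicate number 0.3. For all 6 factors that did not pass, Myf5, Myf6, Pax7, Mef2a, Mef2d and Six4, the 95% interval (not adjusted for the number of genes) lay within a 1.5-fold change in either direction.

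The promoters of Myog and Mef2c are shown because both genes changed and both windows hold motifs that myogenic bHLH or related homeobox factors are known to bind. RefSeq sequences (GRCm38.p6) were at hand for 7 of the 9 genes, with 10 start sites in all, but not for Myod1 and Myf6. The 250 bases before each start were searched on both strands. The motifs were the E-box CANNTG, which myogenic bHLH factors bind, TCAGGTT, the MEF3 site of Six4 and its relatives, and CTANNNNTA. CTANNNNTA is a loose form of the MEF2 site in which each N may be any base, so a match need not be A/T-rich. It was chosen after the stricter MEF2 consensus had given no match in any of the 10 windows. In the sequences below, written 5′ to 3′ up to the base before the start site, capitals mark matches to any of these motifs. The Myog window is chr1:134289754-134290003 on the plus strand, and the Mef2c window, before the most upstream of its start sites, is chr13:83503784-83504033 on the plus strand.
Myog: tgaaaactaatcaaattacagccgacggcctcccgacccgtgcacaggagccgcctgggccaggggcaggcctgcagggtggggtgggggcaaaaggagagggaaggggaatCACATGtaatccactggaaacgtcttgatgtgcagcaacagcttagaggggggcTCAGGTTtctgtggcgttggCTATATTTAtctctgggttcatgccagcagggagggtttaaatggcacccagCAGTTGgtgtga
Mef2c: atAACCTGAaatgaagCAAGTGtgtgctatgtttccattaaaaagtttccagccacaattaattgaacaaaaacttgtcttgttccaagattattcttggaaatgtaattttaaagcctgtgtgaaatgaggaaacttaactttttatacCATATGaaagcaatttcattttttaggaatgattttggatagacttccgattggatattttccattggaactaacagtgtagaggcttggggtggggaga
The Myog window held an E-box at −138 and another at −12 (first base, counted from the start site), TCAGGTT at −84 and CTATATTTA at −64. The Mef2c window held E-boxes at −234 and −100 and the reverse complement of TCAGGTT at −248. Of the 10 windows, 3 held TCAGGTT (1 each of Myog, Mef2c and Six4), 3 held an E-box and 3 held CTANNNNTA. Of the CTANNNNTA matches, CTAGGTTTA of Myf5 and CTAACGATA before the most downstream Mef2c start site hold G or C between CTA and TA. Among all 32851 promoter windows of that length, 3.49% held TCAGGTT, 66.2% an E-box, 19.0% CTANNNNTA and 2.92% the stricter MEF2 consensus. A match is a run of letters, and whether a factor was bound there was not measured. Pax7, Mef2a and Mef2d had no match in this stretch. The windows before the middle Mef2c start site and the more upstream Six4 start site held none either.

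Around the 9 factors, 5 lists of partners, regulators and targets were described, with 88 genes in all, of which 86 had a named probe set. Of these 7 rose, 11 fell and 68 did not pass, against rises of 5.94% and falls of 4.95% over all probe sets. Their median difference was −0.10, against −0.05 over all probe sets.

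Among 18 partners and repressors of bHLH factors, 1 rose and 1 fell. Without the fold minimum 2 were higher and 7 lower, against 30.1% of all probe sets in either direction. The C26 pools lay wholly below the control pools for 8 of the 18 and wholly above for 2, against 24.6% and 19.3% of all probe sets. The E protein genes Tcf3 and Tcf12 did not pass (adjusted p = 0.522 and 0.984), and Tcf4 differed by −0.33 (SE 0.07, adjusted p = 0.00759 from limma), under the fold minimum. Bhlhe41, which encodes a bHLH repressor of MyoD activity that is also part of the circadian clock, was at 6.99, 7.34 and 7.00 in the C26 pools, against 8.98, 8.67 and 8.84 in the control pools. All C26 pools were far below the control pools, and Bhlhe41 fell by 1.72 (SE 0.12, adjusted p = 2.59e-05). Snai1, a zinc finger repressor that competes for E-boxes, rose by 0.69 (SE 0.09, adjusted p = 0.000468). Id2, which sequesters E proteins, differed by −0.52 (SE 0.10, adjusted p = 0.00432) and Id3, of the same family, by 0.32 (SE 0.10, adjusted p = 0.036), both under the fold minimum. Id4 differed by −0.41 (adjusted p = 0.011), also under the fold minimum, and Id1 by 0.17 (adjusted p = 0.402).

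In the network of Eya, Dach, Pax, Six2, Six5 and other homeobox genes of muscle precursors, 1 of 13 measured genes rose and 3 fell. Lbx1, a homeobox gene of migrating limb muscle precursors, was at 6.61, 6.73 and 6.25 in the C26 pools, against 7.67, 7.56 and 7.65 in the control pools. Lbx1 fell by 1.10 (SE 0.12, adjusted p = 0.000262 from limma). Meox1, a homeobox gene of the somite, differed by −0.98 and Six2 by −0.74 (adjusted p = 0.000642 for both, both falls). Pitx3, a homeobox gene expressed during muscle differentiation, rose by 0.69 (adjusted p = 0.000854). The Eya genes, whose products are co-activators of Six4 and its relatives, lay between −0.04 and 0.39, and Eya3 had the 0.39 (adjusted p = 0.00388).

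Of 20 MEF2 co-regulators, 2 rose and 2 fell. Mamstr encodes a co-activator of MEF2 factors in muscle. Mamstr was at 6.22, 6.20 and 6.33 in the C26 pools, against 7.49, 7.56 and 7.59 in the control pools, and fell by 1.30 (SE 0.08, adjusted p = 1.16e-05 from limma). Hdac9, a class IIa deacetylase gene whose product represses MEF2 and which is itself a MEF2 target, was at 5.15, 5.20 and 5.52 in the C26 pools, against 6.59, 6.80 and 6.79 in the control pools. The groups lay far apart, and Hdac9 fell by 1.44 (SE 0.11, adjusted p = 4.78e-05). Its relatives moved less, with 0.33 for Hdac5 (SE 0.07, adjusted p = 0.0104), −0.11 for Hdac4 (adjusted p = 0.324) and −0.06 for Hdac7. Sik1, a kinase gene whose product phosphorylates class IIa deacetylases and so releases MEF2, was at 9.32, 9.57 and 9.70 in the C26 pools, against 7.66, 7.55 and 8.03 in the control pools, and rose by 1.78 (SE 0.14, adjusted p = 4.78e-05). Vgll2, a vestigial-like cofactor gene, was at 8.61, 9.38 and 9.46 in the C26 pools, against 8.08, 8.18 and 8.12 in the control pools. It rose by 1.02 (SE 0.20, adjusted p = 0.00496), with the smallest step in C26 replicate 1, and by the methods' t-test its adjusted p was 0.0746. Srf and Mapk14, the genes of serum response factor and of the p38α kinase that activates MEF2, differed by −0.43 (adjusted p = 0.00191) and −0.50 (adjusted p = 0.00919), under the fold minimum.

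**Figure D3:**
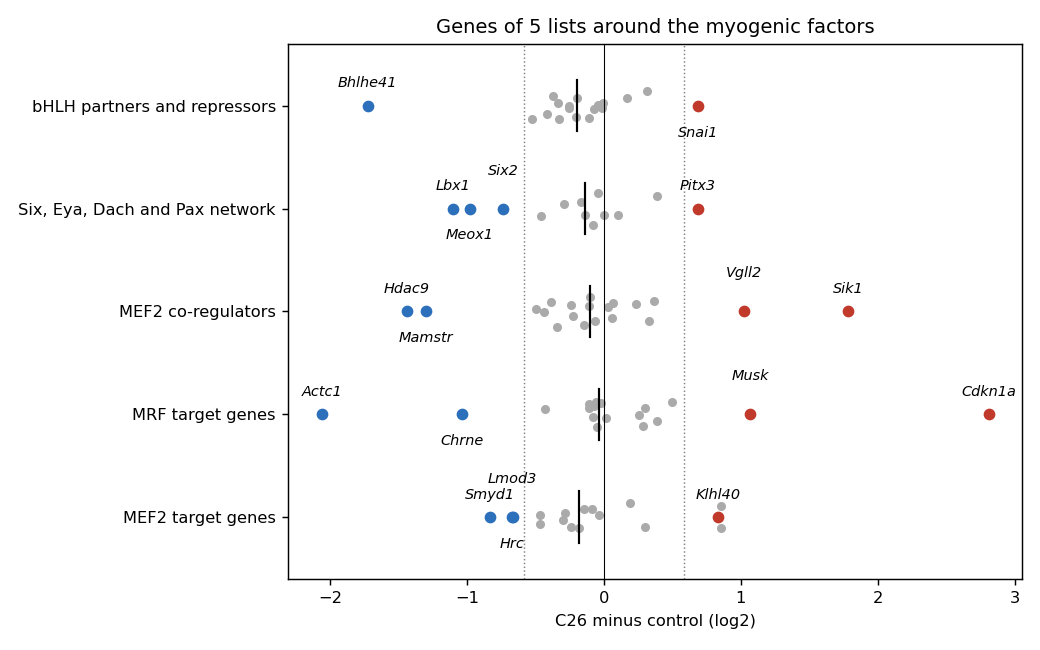
Difference between C26 and control muscle (log2, horizontal axis) for each measured gene of 5 lists (rows). Red and blue named points rose or fell, grey points did not pass both thresholds and are spread vertically only to be seen, black bars are list medians and dotted lines mark a 1.5-fold change. Most genes of each list lie within the dotted lines, and the lists hold rises and falls alike.

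Among 17 genes known as MEF2 targets, 3 fell and 1 rose. Smyd1, a muscle methyltransferase gene under MEF2C, was at 9.16, 9.02 and 9.04 in the C26 pools, against 9.97, 9.92 and 9.82 in the control pools. Smyd1 fell by 0.83 (SE 0.08, adjusted p = 0.000124 from limma), Hrc, which encodes a calcium binding protein of the sarcoplasmic reticulum, fell by 0.67 (SE 0.07, adjusted p = 0.000223), and Lmod3, which encodes the thin filament protein leiomodin 3, also fell by 0.67 (SE 0.07, adjusted p = 0.000214). Srpk3, a muscle kinase gene controlled by MEF2C, and Mb, the myoglobin gene, each differed by −0.47 (adjusted p = 0.00501 and 0.00196), under the fold minimum. The C26 pools lay wholly below the control pools for 11 of the 17 genes and wholly above them for 3, against 24.6% and 19.3% of all probe sets. Slc2a4, Myom1, Myom2 and Pygm, the genes of the glucose transporter GLUT4, of the M-band proteins and of muscle phosphorylase, lay between −0.14 and 0.19, and none of them passed. Klhl40, which encodes a stabilizer of leiomodin 3, was at 7.74, 8.53 and 8.40 in the C26 pools, against 7.71, 7.21 and 7.25 in the control pools. It rose by 0.83 (SE 0.21, adjusted p = 0.0173), but did not pass without C26 replicate 3 or 4 or control replicate 2 or 3 (adjusted p = 0.0649, 0.0714, 0.0562 and 0.0559). Ppargc1a (the PGC-1α gene) and Xirp1 (a MEF2A target) differed by 0.86 and 0.86 (adjusted p = 0.0588 and 0.154), with C26 replicate 1 within the control range and replicates 3 and 4 above every control pool for both genes.

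Of 18 genes known as targets of the myogenic bHLH factors, 2 rose and 2 fell. The C26 pools lay wholly above the control pools for 7 of them and wholly below for 3, against 19.3% and 24.6% of all probe sets. Cdkn1a, the p21 gene of cell cycle exit, was at 9.23, 9.75 and 9.79 in the C26 pools, against 7.02, 6.79 and 6.52 in the control pools, and rose by 2.81 (SE 0.17, adjusted p = 1.49e-05 from limma). Actc1, the cardiac actin gene that is also an early actin of skeletal muscle, was at 8.17, 7.83 and 7.91 in the C26 pools, against 10.04, 10.02 and 10.03 in the control pools. Every C26 pool was far below the control pools, and Actc1 fell by 2.06 (SE 0.10, adjusted p = 4.13e-06). Among genes of the neuromuscular junction, Musk, the agrin receptor kinase gene, rose by 1.07 (SE 0.12, adjusted p = 0.000249), and Chrne, the adult ε subunit gene of the acetylcholine receptor, fell by 1.04 (SE 0.10, adjusted p = 0.00012). Chrna1 and Chrnb1 differed by 0.39 and 0.30 (adjusted p = 0.00747 and 0.032), under the fold minimum, whereas the embryonic γ subunit gene Chrng and the δ subunit gene Chrnd differed by −0.06 and −0.05 (adjusted p = 0.756 and 0.768). The embryonic and neonatal myosin genes Myh3 and Myh8 differed by 0.02 and −0.11 (adjusted p = 0.931 and 0.361), and the fusion genes Mymk and Mymx by −0.11 and −0.08 (adjusted p = 0.54 and 0.573). Ckm, the muscle creatine kinase gene and a classical target of MyoD and MEF2, was at 12.75, 12.71 and 12.68 in the C26 pools, against 12.75, 12.74 and 12.71 in the control pools, a difference of −0.02 near the top of the array's range of 13.07.

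**Figure D4:**
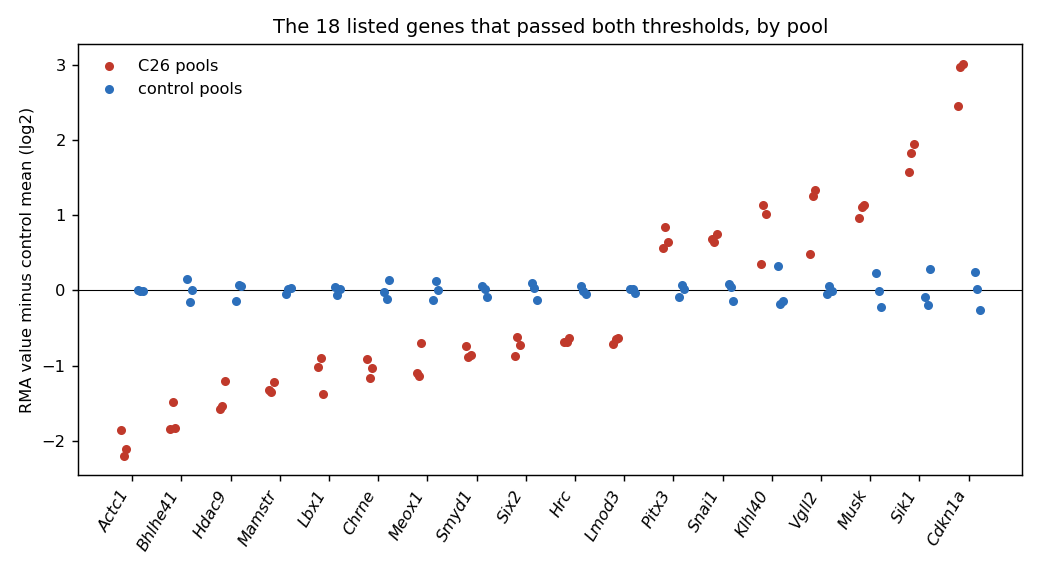
Values of the 18 listed genes that rose or fell, as RMA value minus the control mean of the gene (log2, vertical axis), in 3 C26 pools (red) and 3 control pools (blue). Every C26 pool lies on one side of every control pool for each gene, closest for Klhl40, and the changes run between −2.06 for Actc1 and 2.81 for Cdkn1a.

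Markers of the cells in which these factors are expressed were counted beside them, and their part in the results was not tested. Of 18 satellite cell markers 1 rose and 1 fell. Sdc4 (syndecan 4) differed by 1.40 and Cd34 by −0.66 (adjusted p = 6.68e-05 and 0.00111 from limma), and both are also expressed in other cells. Calcr, a marker of quiescent satellite cells, was not above the background in either group, and Cdh15 (M-cadherin), also counted among the bHLH targets, differed by 0.50 (adjusted p = 0.00592). The summed level of the satellite cell markers (log2 of the sum of the linear values) was 11.27 to 11.34 in C26 pools and 11.16 to 11.21 in control pools. Sdc4 set this direction, since without it the sum was 10.78 to 10.87 in C26 pools and 10.98 to 11.04 in control pools. The median difference of the 18 markers was −0.16. C26 pools lay wholly below control pools for 7 of them and wholly above for 2, against 24.6% and 19.3% of all probe sets. Of 8 measured proliferation markers none passed, with a summed level of 6.79 to 6.88 in C26 pools and 6.92 to 7.14 in control pools, and 6 of the 8 lay above the background in a group. Of 10 fiber markers only Mylpf, a fast myosin light chain gene, passed (−0.70, adjusted p = 0.000143), and their summed level was 15.44 to 15.49 in C26 pools and 15.58 to 15.63 in control pools. Mef2c is also expressed in endothelial cells, where 1 of 6 markers fell (Kdr, −1.21, adjusted p = 9.87e-05), the median difference was −0.04 and the summed level was 9.83 to 9.97 in C26 pools and 10.01 to 10.13 in control pools. In macrophages, which also express MEF2 factors, 5 of 7 markers rose (Itgam, Cd163, C1qb, Mrc1 and C1qa), and Adgre1 and Csf1r did not pass (adjusted p = 0.993 and 0.913). Their summed level was 9.73 to 9.82 in C26 pools and 8.93 to 9.08 in control pools. Of 7 neutrophil markers 4 rose (7.24 to 7.57 in C26 pools and 6.04 to 6.19 in control pools), and of 6 fibroblast markers 3 fell (Col1a1, Col3a1 and Dpt), with a summed level of 11.58 to 11.79 in C26 pools and 12.40 to 12.55 in control pools. Without Col1a1, which differed by −2.61, the sum was 11.41 to 11.54 in C26 pools and 11.59 to 11.70 in control pools. Pdgfra, a receptor gene of fibroblast-like progenitors, differed by 0.50 (adjusted p = 0.00135, under the fold minimum, with every C26 pool above every control pool), and Dcn by 0.03 (adjusted p = 0.835). The neutrophil markers Ly6g and Mpo were not above the background in either group. Of 3 measured Schwann cell and 4 smooth muscle markers none passed. For all 3 Schwann cell markers the C26 pools lay wholly below the control pools. Their summed level was 6.48 to 6.58 in C26 pools and 6.77 to 6.96 in control pools. The summed level of the smooth muscle markers overlapped (9.59 to 9.78 in C26 pools and 9.62 to 9.73 in control pools).

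The genes whose 6 values ran most like those of a changed factor were taken from 13338 named genes above the background. For Mef2c these were Ndufc1 (r = 0.9999, a subunit of respiratory complex I, with a difference of −0.67), Myorg (r = 0.9997, a glycosidase of muscle differentiation, with means of 7.29 in C26 muscle and 8.29 in control muscle) and Slc25a35 (r = 0.9993, a mitochondrial carrier, with a difference of −1.43). For Myod1 they were Rrbp1 (0.9989), Rtl6 (0.998) and Atp5mpl (0.9979), with differences of −0.44, −0.51 and −0.68. For Myog they were Ppbp (0.9995, a platelet chemokine gene), Lonp2 (0.9991, a peroxisomal protease gene) and Fam120b (0.9985), with differences of 1.26, 0.46 and 0.53. These correlations run over 6 arrays that share the step between 2 groups, so values near 1 are common, and they are given as a description only.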

How the data were processed

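Gene expression was measured on 6 Affymetrix Mouse Gene 1.0 ST arrays. The authors made the deposited log2 values by RMA, run in GenePattern on gene-level probe sets of a Brainarray CDF (version 13). This step subtracts background, equalizes the distributions of the arrays and combines probes, and it compresses changes near the background. The probes' genome build was not given in the sources used here. RNA integrity numbers were at least 8.0. The number of arrays limits the precision.

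Of 21212 probe sets, 18782 had a unique name in the platform annotation, of which 18775 were matched to current symbols through RefSeq gene IDs. Of the others, 6 carried several symbols, 4 shared one and 2420 are unnamed here. The 2 groups were fitted over all 6 arrays in limma (version 3.58.1, R 4.3.3) with lmFit and eBayes, whose prior carried 4.52 degrees of freedom, and tests were two-sided. Alternatives were the methods' t-test, a test with unequal variances, an intensity trend, other thresholds, 3 further scalings, a filter on dim probe sets, leaving out each array and a block for the replicate number. The methods name parametric t-tests and do not say whether variances were taken as equal. The methods' t-test was run here with equal variances and a Benjamini-Hochberg adjustment. The script was tested on simulated data. Tables and figures were made with Python 3.11.15.

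The 9 genes, the lists and the tests were chosen with earlier results of these data known. The rule for naming took the 9 factors, the changed genes of each list (at most 5, those with the largest change), cell type markers that bear on a factor and the 3 genes most correlated with each changed factor. Other genes are named to describe a list and were chosen after their values were seen. The search for CTANNNNTA and the marker sums without Sdc4 or Col1a1 were also added then.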

Additional observations from a re-analysis of the deposited data

How the results depend on the processing

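Mef2c fell under each of 16 alternatives, with differences between −1.94 and −1.78. Myod1 fell (−1.67 to −1.35) and Myog rose (0.63 to 0.86) under 15 of 16, and the exception was the test with unequal variances (adjusted p = 0.0708 and 0.0653). That test left 0 factors higher and 1 lower, 4 listed genes higher, and 760 probe sets higher and 621 lower. Without the fold minimum 4 factors, 17 listed genes and 3041 probe sets were higher and 27 listed genes and 3344 probe sets lower. By the methods' t-test 1131 probe sets were higher and 936 lower, and 1 factor was higher and 2 lower. None of the 9 factors changed direction under any alternative that tested it. The scalings moved the median of all probe sets by less than 0.1, between −0.05 for the deposited values and 0.02 for median centring.

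Leaving out each array in turn gave 1 factor higher and 2 lower each time, 6 to 9 listed genes higher and 11 to 12 lower, 1196 to 1391 probe sets higher and 992 to 1155 lower. Among MEF2 targets the count of rises was 0 to 3 when an array was left out, and 3 came without C26 replicate 1. The methods' t-test, the test with unequal variances, the stricter adjusted p of 0.01 and the replicate block also gave 0 rises there. The methods' t-test and the test with unequal variances each gave 1 rise among MEF2 co-regulators, and unequal variances 1 rise among bHLH targets and 1 fall in the homeobox network. Among bHLH partners 2 fell with the block or without C26 replicate 4. Other counts by list moved by over 1.5 times only where the fold minimum was dropped, and for 2 rises among MEF2 targets with a trend, with median centring and with the filter on dim probe sets. The cause of these shifts was not tested.

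Replicate numbers 1 and 3 occur in both groups, but arrays with the same number did not deviate together (correlations of −0.06 and −0.06), and the labels tie no number to a shared mouse or day. With the replicate block 1235 probe sets were higher and 1069 lower, and 1 factor was higher and 2 were lower. Myf5 was not tested with the filter on dim probe sets, since it fell under it.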
